A study of Mus musculus with 6 samples.

Results

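Microexons of 3 to 27 nucleotides (nt) that were both included and skipped were examined in mouse nucleus accumbens (NAc), the part of the ventral striatum that belongs to the reward circuit. A single cassette exon is an internal exon that one transcript of a gene includes while another joins the exons on its flanks directly. An exon was a member when a library's list of splicing events gave it as a single skipped exon and its end minus its start plus 1 was 3 to 27. Exons with the same gene, strand, start and end were counted once over the 6 libraries. This rule gave 465 microexons in 386 genes, of 8834 single cassette exons in 4938 genes (5.26%). The remaining 8369 exons had 28 nt or more. An exon that the lists assign to different genes is counted under each. The 18-nt exon at chr7:16150574-16150591 thus enters under Kptn, where it is not annotated, and under Slc8a2, where it is coding.

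The libraries came from the NAc of adult male C57BL/6N mice with no transgene or deletion. The 3 mice or pools of the morphine group received morphine in conditioned place preference training, in which a drug is paired with one chamber, and those of the saline group (n = 3) received saline in the same procedure. Tissue was taken shortly after the preference test, on the day following the last session. The sources differ on whether a library holds tissue of 1 mouse or of several, so p-values cover only the spread between libraries. In bulk tissue, fewer cells of a type and less RNA per cell cannot be told apart.

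Microexons are best known from neurons, where splicing factors such as SRRM4 promote their inclusion. Many have a length that is a multiple of 3, so that including them adds a few amino acids to a protein and leaves the reading frame as it was. They often lie in proteins of synapses, the cytoskeleton and vesicle traffic. Srrm3, a relative of Srrm4, itself held a member here, an exon of 20 nt listed only in saline library 3 and morphine library 2. That exon is partly coding, and its length is not a multiple of 3.

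The lists hold no level. The sources do not state when an exon is listed in a library. It was assumed that the assembled transcripts of that library then included it in one form and skipped it in another. On this assumption, an exon that is always included, always skipped or not assembled is not listed. A missing entry does not show that the exon was absent from the tissue. Of 2790 combinations of a member and a library, 1751 (62.8%) were listed. In 1034 (99.5%) of the other 1039 combinations the gene itself was still present in the library's event list with an event of any type. In 555 (53.4%) of these 1039 combinations a single cassette exon of the gene was listed. In 61 of the 1039 (5.87%) the exon was listed as part of a skipped block of several exons.

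Marker genes were checked by listing only, which shows neither their level nor the share of a cell type. All 10 markers of medium spiny neurons, the principal neurons of the NAc, had events in all 6 libraries, and so did 4 of 4 oligodendrocyte, 4 of 4 astrocyte and 3 of 3 microglia markers. Of the endothelial pair, Flt1 was listed in all 6 and Cldn5 in none. The relative sequencing depth, set to 1 for saline library 1, was 1.07 and 1.37 in the other saline libraries and 1.20, 1.59 and 1.29 in the morphine libraries. Between 14243 and 14956 genes had an event in a library.

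To show what these exons look like, 1 coding microexon listed in all 6 libraries is given for each role that the genes were grouped by, the shortest of its list or 1 of equal length. Capitals mark the microexon, and lower case marks the 20 bases of spliced transcript on either side. Positions are those of the files, which match GENCODE M21 on GRCm38.
Ptprd (adhesion), chr4:76139294-76139302, minus strand: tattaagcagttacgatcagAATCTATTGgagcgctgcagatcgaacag
Myo5a (cytoskeleton), chr9:75187522-75187530, plus strand: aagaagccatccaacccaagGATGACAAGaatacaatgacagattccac
Ap2m1 (vesicle), chr16:20540808-20540813, plus strand: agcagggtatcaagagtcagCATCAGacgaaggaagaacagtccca
Eif4g1 (translation and RNA), chr16:20674786-20674806, plus strand: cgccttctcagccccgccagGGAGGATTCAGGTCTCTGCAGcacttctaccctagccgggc
Mef2a (transcription and chromatin), chr7:67244521-67244544, minus strand: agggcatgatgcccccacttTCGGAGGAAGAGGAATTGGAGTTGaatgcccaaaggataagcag
Ptk2 (kinases and GTPase regulators), chr15:73211987-73211995, minus strand: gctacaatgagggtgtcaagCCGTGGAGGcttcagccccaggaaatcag
Cacna2d1 (channels and calcium), chr5:16341990-16342010, plus strand: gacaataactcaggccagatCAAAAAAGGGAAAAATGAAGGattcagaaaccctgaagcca

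Each of these 7 exons has a length that is a multiple of 3. The Ap2m1 exon, in the gene of the medium subunit of the clathrin adaptor AP-2, was the only member of 6 nt that all 6 libraries listed. The 9-nt exons belong to a receptor tyrosine phosphatase that organises synapses (Ptprd), to a myosin motor that carries vesicles along actin (Myo5a) and to focal adhesion kinase (Ptk2).

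Lengths that keep the reading frame made up most of the members. Of the 465 microexons, 390 (83.9%) had a length that is a multiple of 3, while 9 of the 25 possible lengths (36.0%) are such multiples. In the single libraries the share was 88.0% ± 1.12 (SD, n = 6), with a range of 86.6% to 89.3%. Among the longer cassette exons of the same libraries it was 56.6% ± 0.652. The difference of 31.4 percentage points was found in 6 of 6 libraries (two-sided exact sign-flip permutation test over the paired libraries, p = 0.03125, Benjamini-Hochberg adjusted p = 0.03125 over 5 measures, the smallest p that 6 pairs allow). Because libraries list many of the same exons, this p covers the spread between libraries and not that between exons. Against exons of 28 to 51 nt alone the difference was 17.2 points.

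The number of exons rose with length along the multiples of 3 up to 24 nt. The union held 10 exons of 6 nt, 23 of 9 nt, 33 of 12 nt, 41 of 15 nt, 61 of 18 nt, 65 of 21 nt, 81 of 24 nt and 75 of 27 nt. The lengths between them held 1 to 13 exons each where any were found, with 11 at 26 nt. Just outside the limit there were 11 exons of 28 nt, 9 of 29 nt and 47 of 30 nt. The limit of 27 nt thus falls inside a run of multiples of 3 and not at a gap.

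**Figure D1:**
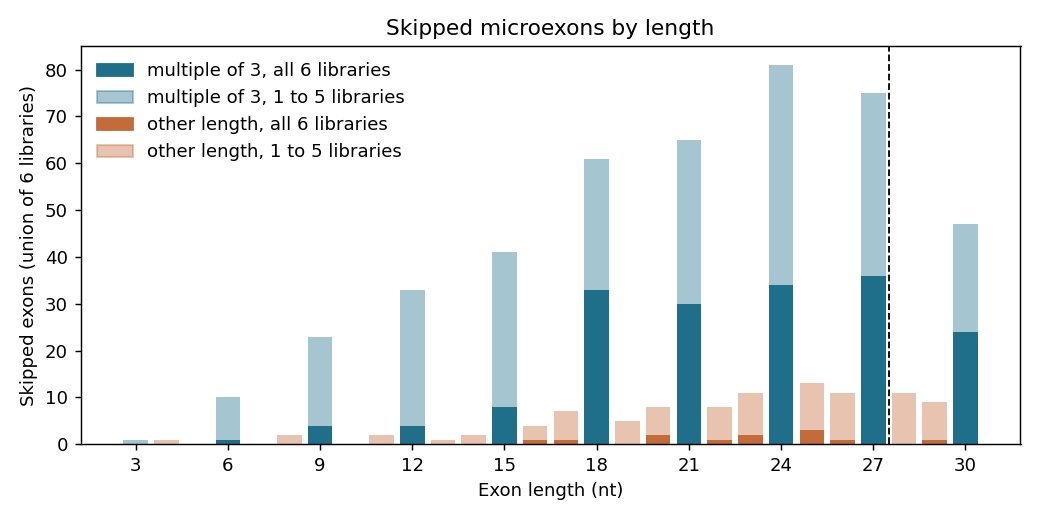
Number of skipped exons (vertical axis) by length in nt (horizontal axis), over the union of 6 libraries, with lengths that are multiples of 3 in blue and others in orange, and the dark part of each bar listed in all 6 libraries. The dashed line marks the limit of 27 nt, and the dark part grows from 8 of 41 exons at 15 nt to 33 of 61 at 18 nt.

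The shortest members were rarely listed in every library. The shortest of all, 3 nt in Vdac3, a channel of the outer mitochondrial membrane, was listed in saline libraries 1 and 2 and morphine library 2, and M21 does not annotate it. An exon of 4 nt in Mpc1, a subunit of the mitochondrial pyruvate carrier, was listed in morphine library 1 alone. The 6-nt exon of Apbb1, which encodes a cytoplasmic partner of the amyloid precursor protein, was listed in all libraries except morphine library 1. The 6-nt exons of Reln, the secreted protein reelin, and of Nsmf, a messenger from synapse to nucleus, were both listed in saline library 3 and morphine libraries 1 and 2.

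Microexons recurred across libraries more often than longer cassette exons, and this depended on their length and frame. All 6 libraries listed 161 of the 465 (34.6%), in 139 genes, and 110 (23.7%) were listed in 1 library. Of the longer exons, 23.6% were listed in all 6 libraries and 38.9% in 1. Within a library, 55.3% ± 2.57 (SD, n = 6) of its microexons and 46.9% ± 1.64 of its longer exons were shared by all 6, a difference of 8.37 percentage points in 6 of 6 libraries (exact sign-flip permutation test, p = 0.03125, adjusted p = 0.03125). The same 161 microexons and 1974 longer exons enter this share in every library. The 6 pairs therefore differ only in how many other exons a library lists, and this p is no evidence of replication. The difference changed direction under several comparisons. It was -4.07 points against exons of 28 to 51 nt alone, -0.0584 points when both classes were held to coding exons that keep the frame, and -16.8 points for microexons of 3 to 15 nt.

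Among the 390 members whose length is a multiple of 3, 150 (38.5%) were listed in all 6 libraries, compared with 11 of the 75 others (14.7%). The same split in longer exons gave 32.4% and 15%. Of the 75 members that shift the frame, 32 were listed in a single library. Within the multiples of 3, the share listed in all 6 libraries was 15.7% (17 of 108) up to 15 nt and 47.2% (133 of 282) from 18 nt. For coding exons the values were 18.2% (16 of 88) and 53.9% (125 of 232), against 39.5% of 2831 longer coding exons that keep the frame. Between 15 and 18 nt the share went from 19.5% to 54.1%. These shares are descriptions, and whether shorter exons are harder to align or assemble in these libraries was not tested.

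**Figure D2:**
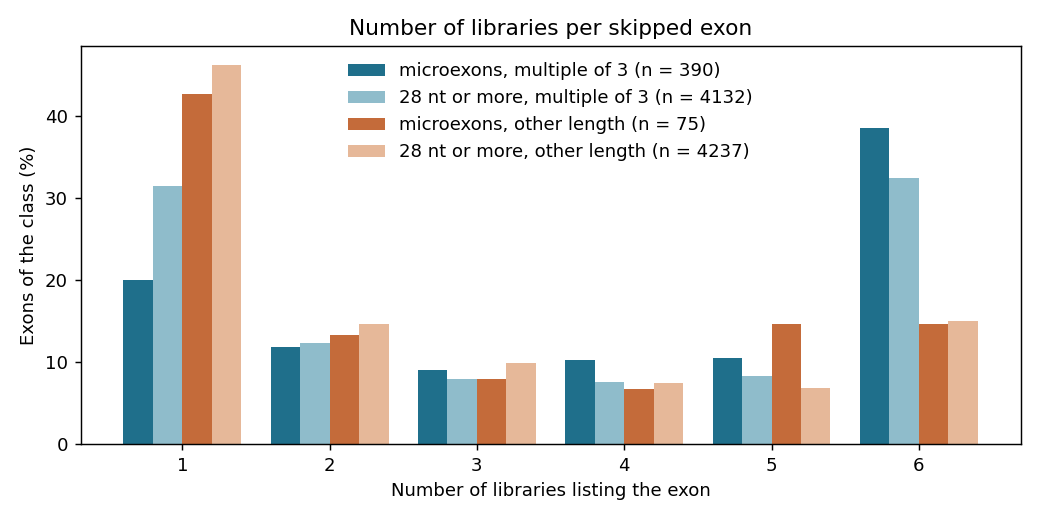
Percent of exons (vertical axis) by the number of libraries that listed them (horizontal axis), for microexons and for exons of 28 nt or more, split by whether the length is a multiple of 3. All 6 libraries listed 38.5% of the 390 microexons that keep the frame and 14.7% of the 75 that do not.

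Up to 15 nt, 17 members were listed in all 6 libraries, and 16 of them are annotated coding exons. Besides Ap2m1, Ptprd, Myo5a and Ptk2, they include Kif3a, a kinesin motor of transport in cilia and axons, Commd6, Sh3glb2, an endophilin of membrane remodelling, and Bbs9, a subunit of the BBSome that sorts cargo of cilia. The following sequences show the shortest of these exons that are not given above.
Kif3a, chr11:53590717-53590725, plus strand: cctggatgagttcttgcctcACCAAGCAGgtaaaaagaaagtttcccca
Commd6, chr14:101640288-101640299, minus strand: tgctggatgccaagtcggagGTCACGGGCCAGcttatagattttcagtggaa
Ptprd, chr4:76135545-76135556, minus strand: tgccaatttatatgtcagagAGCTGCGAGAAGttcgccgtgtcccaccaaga
Sh3glb2, chr2:30349226-30349237, minus strand: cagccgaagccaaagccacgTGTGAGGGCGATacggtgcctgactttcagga
Bbs9, chr9:22648020-22648034, plus strand: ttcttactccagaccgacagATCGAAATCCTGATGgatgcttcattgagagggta
At 15 nt the members listed in all 6 libraries also included Dctn1, the large subunit of dynactin, Sptan1, the non-erythroid alpha spectrin, Rapgef6, an exchange factor for Rap GTPases, Kif21a, Inpp4a, a phosphoinositide phosphatase, Tpd52l1 and a second exon of Sh3glb2. The exception without annotation was a 12-nt exon of Scyl2.

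Most members lie in coding sequence. M21 annotates 386 of the 465 exons (83.0%), 348 of them wholly within coding sequence (74.8%), 15 partly coding, 14 in untranslated regions and 9 in noncoding transcripts. Of the longer exons, 57.8% are wholly coding, and of those of 28 to 51 nt 65.8%. In the single libraries, 89.7% ± 0.919 of microexons and 88.4% ± 0.925 of longer exons were annotated (SD, n = 6; exact sign-flip permutation test, p = 0.03125, adjusted p = 0.03125), a difference of 1.33 points that turned to -2.09 points against exons of 28 to 51 nt. Of the 161 members listed in all 6 libraries, 147 (91.3%) are coding. Among the 79 exons without a match in M21 are 2 on patch sequences, whose genes the annotation used does not hold. The 79 recurred seldom, with 4 listed in all 6 libraries. These were in Scyl2 (12 nt), Ash2l, a subunit of histone methyltransferase complexes (18 nt), Tenm3, a teneurin (18 nt), and Eprs, a tRNA synthetase (21 nt). The junction that skips the exon is annotated for 89.5% of the members and 72.4% of the longer exons. For exons of 28 to 51 nt alone it is annotated for 84.7%.

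Of the 320 coding members that keep the frame, 141 (44.1%) start at the first base of a codon, so that they insert whole codons, 105 (32.8%) start at the second base and 74 (23.1%) at the third. For the longer coding exons of the same kind the shares were 42.7%, 39.0% and 18.3%. In both classes the position was counted from the first annotated coding base of a single transcript, without the reading frame that the annotation gives. Where that coding sequence is incomplete at its start, the position can be wrong. Coding members that shift the frame and were listed in all 6 libraries numbered 6. They were in the collagen genes Col11a1 (16 nt) and Col4a1 (17 nt), the apoptosis effector Bak1 (20 nt), Pfkfb3, a regulator of glycolysis (23 nt), the ubiquitin ligase March7 (25 nt) and Mfsd6 (25 nt).

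Over 341 coding members that could be read from the annotated transcripts, 30.7% of bases were A and 20.4% were C, against 26.7% and 25.6% in 4710 longer coding exons. G at the last base, which the splice donor favours, was present in 82.1% of the members and 79.2% of the longer exons. G at the first base was present in 28.7% and 43.3%. These are shares over exons, with no test.

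The introns beside the members were shorter than those beside longer cassette exons, with the larger difference downstream. The median upstream intron per library was 1899.6 nt ± 110.1 (SD, n = 6) for members, ranging from 1714.5 to 2037 nt, and 2275 nt ± 15 for longer exons. The median downstream intron was 1569 nt ± 38.3, ranging from 1542 to 1644 nt, and 2394.5 nt ± 43.9 for longer exons. The ranges did not overlap for either side, and the differences of -375.6 and -825.7 nt were found in 6 of 6 libraries (exact sign-flip permutation test, p = 0.03125 and adjusted p = 0.03125 for each). Against exons of 28 to 51 nt, the upstream difference turned to 71.6 nt while the downstream one was -845.5 nt. For microexons of 3 to 15 nt the upstream difference was -802 nt and the downstream one -860.4 nt. Among coding exons that keep the frame they were -340.25 and -431.25 nt. In both of these settings the sides lay closer together.

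**Figure D3:**
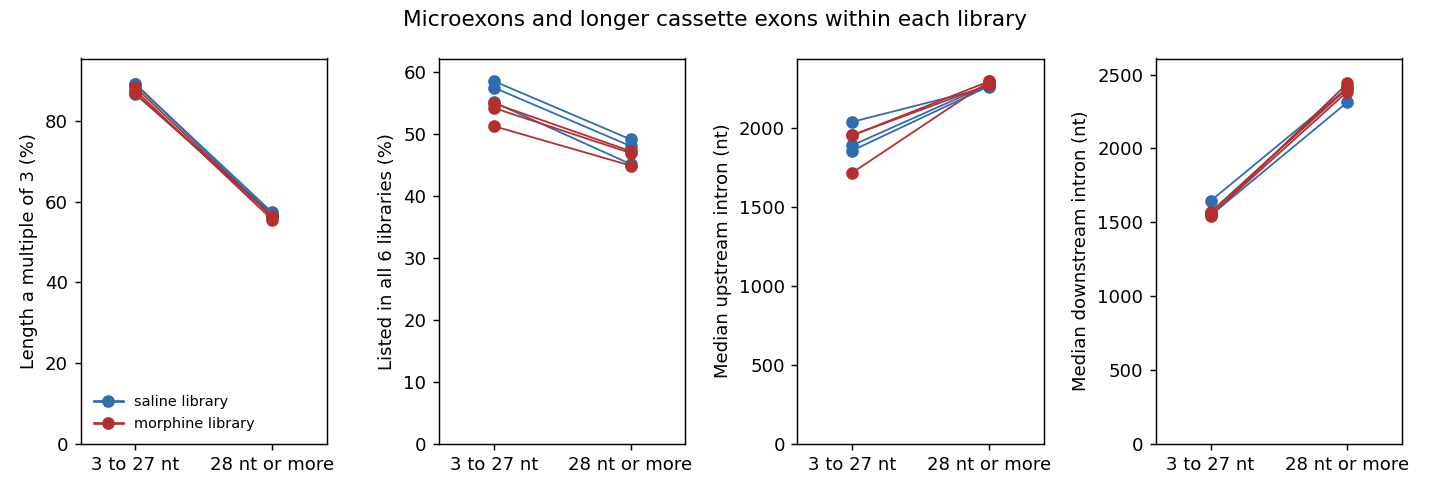
Percent of exons with a length that is a multiple of 3, percent listed in all 6 libraries, and median upstream and downstream intron length in nt (vertical axes, from 0), for microexons and exons of 28 nt or more (horizontal axis), with 1 line for each of 6 libraries, saline in blue and morphine in red. Lines fall in the left pair of panels and rise in the right pair in all 6 libraries, with frame shares of 86.6% to 89.3% for microexons.

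Microexons were frequent in the genes of the role lists, which were drawn up with genes known for microexons in mind, so that the counts are no independent evidence. Of 208 listed genes with any single cassette exon, 90 (43.3%) held a microexon, compared with 386 of 4938 (7.82%) over all genes. The share was 60.0% for adhesion and synapse genes (24 of 40), 51.3% for cytoskeleton and motor genes (20 of 39), 48.7% for vesicle genes (19 of 39), 36.7% for kinases and GTPase regulators (11 of 30), 33.3% for channels and calcium genes (7 of 21), 31.6% for translation and RNA genes (6 of 19) and 15% for transcription and chromatin genes (3 of 20). No set test was run on these lists.

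Adhesion and synapse genes held 47 members, of which 25 (53.2%) were listed in all 6 libraries and 46 keep the frame. Neurexins are presynaptic receptors that bind partners across the synaptic cleft. Nrxn2 had exons of 24 and 27 nt and Nrxn3 had 2 exons of 27 nt, all listed in 6 libraries. Scaffold proteins of the synapse were present with Shank1 (24 and 27 nt), Shank3 (24 nt), Dlg1 (21 nt) and Cask (18 nt), all in 6 libraries. The cell adhesion proteins Nfasc and Nrcam each had an 18-nt exon in all 6 libraries.

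Ptprd was 1 of 2 genes with 5 members, of 9, 12, 15, 18 and 27 nt. The exons of 9, 12, 18 and 27 nt were listed in all 6 libraries, and the exon of 15 nt in all except morphine library 1. Ptprf, of the same LAR family of phosphatases, had exons of 18 and 27 nt in all 6 libraries. Ptprs had exons of 12 and 27 nt in 1 and 2 libraries. The other gene with 5 members was Carmil1, a regulator of actin capping protein.

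Related genes carried microexons of the same length and similar sequence. Among 7575 pairs of coding members of equal length, from 12 nt and in different genes, 28 pairs were at least 70% identical base by base, and most joined genes of a single family.

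Teneurins, large transmembrane proteins that bind latrophilins across the synapse, shared a 21-nt exon. Tenm3 and Tenm4 were identical in 20 of 21 bases, Tenm2 and Tenm3 in 19, and Tenm2 and Tenm4 in 18.
Tenm2, chr11:36054926-36054946, minus strand: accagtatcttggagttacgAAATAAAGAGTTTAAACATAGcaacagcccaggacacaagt
Tenm3, chr8:48287133-48287153, minus strand: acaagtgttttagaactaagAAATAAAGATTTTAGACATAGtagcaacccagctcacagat
Tenm4, chr7:96854717-96854737, plus strand: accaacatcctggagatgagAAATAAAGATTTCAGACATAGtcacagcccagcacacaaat
Despite the near identity, their listing differed. The Tenm4 exon was listed in all 6 libraries, the Tenm2 exon in 5 (all except saline library 1) and the Tenm3 exon in saline libraries 1 and 3 and morphine libraries 2 and 3. The 21-nt exon of Tenm1 was listed in saline libraries 2 and 3 and morphine library 3.

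The LAR phosphatases and the CPEB and eIF4G families gave further pairs. The 18-nt exons of Ptprd and Ptprf shared 16 of 18 bases. CPEB proteins bind messenger RNA tails and regulate translation, and their 24-nt exon shared 21 of 24 bases between Cpeb2 and Cpeb3 and between Cpeb2 and Cpeb4, and 18 of 24 between Cpeb3 and Cpeb4.
Ptprd, chr4:76138556-76138573, minus strand: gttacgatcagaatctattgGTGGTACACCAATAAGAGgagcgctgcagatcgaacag
Ptprf, chr4:118252076-118252093, minus strand: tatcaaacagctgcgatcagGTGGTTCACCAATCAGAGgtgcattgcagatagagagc
Cpeb2, chr5:43268869-43268892, plus strand: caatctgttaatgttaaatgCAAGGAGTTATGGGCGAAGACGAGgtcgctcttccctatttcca
Cpeb3, chr19:37105791-37105814, minus strand: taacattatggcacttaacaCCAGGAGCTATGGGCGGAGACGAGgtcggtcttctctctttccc
Cpeb4, chr11:31918801-31918824, plus strand: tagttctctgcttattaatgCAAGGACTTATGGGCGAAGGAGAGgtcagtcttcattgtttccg
Eif4g3, chr4:138095909-138095929, plus strand: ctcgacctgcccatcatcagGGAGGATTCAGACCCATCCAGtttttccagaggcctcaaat
The Cpeb3 and Cpeb4 exons were listed in all 6 libraries and the Cpeb2 exon in saline library 1 and morphine libraries 1 and 3. The Eif4g3 exon shared 16 of 21 bases with the Eif4g1 exon shown above, and both scaffold proteins of translation initiation had their exon in all 6 libraries.

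**Figure D4:**
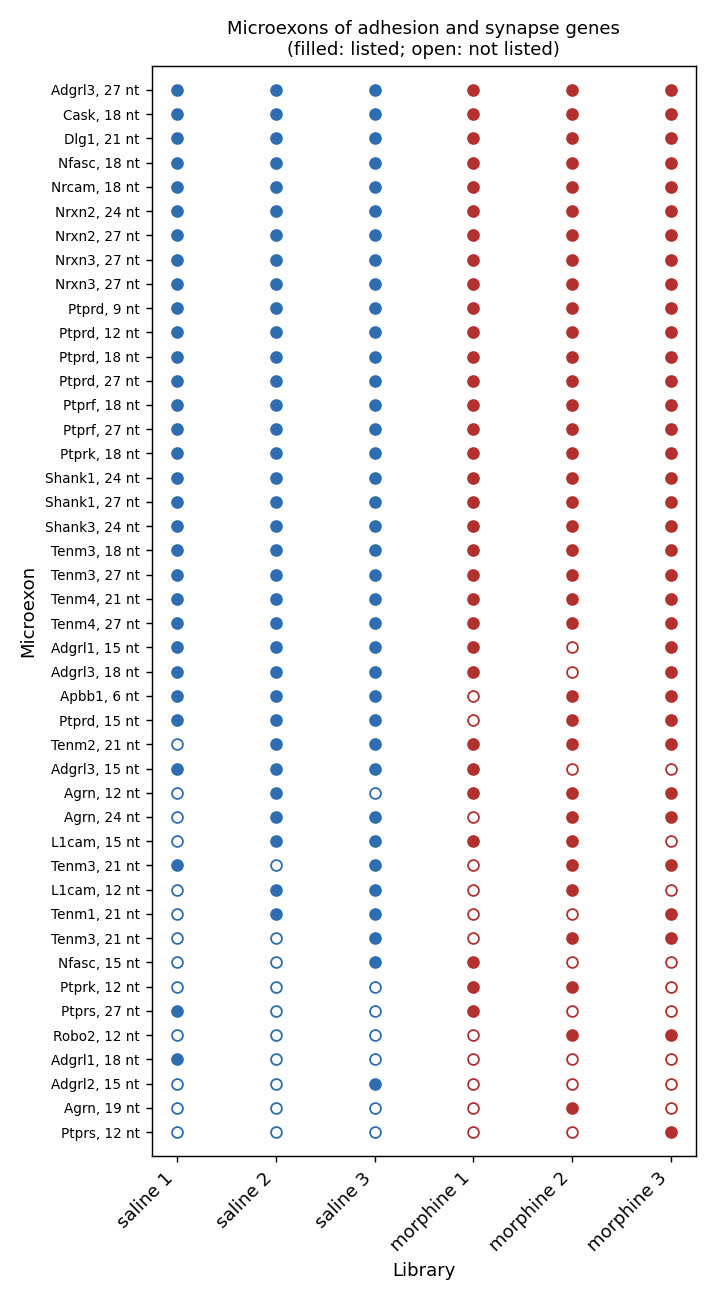
Listing of 44 of the 47 microexons of adhesion and synapse genes (vertical axis, gene and length in nt) in each of 6 libraries (horizontal axis), with filled circles for listed and open circles for not listed. The upper 23 exons are listed in all 6 libraries, and open circles lie in both the saline (blue) and the morphine (red) columns.

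Cytoskeleton and motor genes held 34 members, all of a length that is a multiple of 3, with 20 (58.8%) listed in all 6 libraries. They included 3 exons each in Kif1a, a kinesin that carries synaptic vesicle precursors (24, 27 and 27 nt), and Clasp2, which stabilises microtubule ends (18, 24 and 24 nt), as well as Ank3, the ankyrin of the axon initial segment (24 and 27 nt). Macf1, a linker of microtubules and actin, had 4 members, with the 18-nt exon in all 6 libraries and those of 12 and 15 nt, which overlap, in 2 morphine libraries each. Vesicle genes held 24 members, and only 6 (25.0%) were listed in all 6 libraries. These were the Ap2m1 exon, exons of 18 and 21 nt in Cadps, a priming factor of dense-core vesicles, and exons in Picalm (24 nt), Rab3gap1 (21 nt) and Synj1 (24 nt).

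Of the 15 members in kinases and GTPase regulators, 7 were listed in all 6 libraries, including 9-, 18- and 21-nt exons of Ptk2. The 9-nt exon is coding, while M21 has those of 18 and 21 nt in noncoding transcripts only. The 18-nt exon of the tyrosine kinase Src was listed in all libraries except saline library 3. Of the 8 members in channels and calcium genes, 3 were listed in all 6 libraries, including exons in Cacna2d1, an auxiliary subunit of voltage-gated calcium channels (21 nt), and Ryr3, a calcium release channel (21 nt). M21 has this Ryr3 exon in noncoding transcripts only. The MEF2 transcription factors supplied the 3 members of the transcription list. The 24-nt exon of Mef2a was listed in all 6 libraries, the 21-nt exon of Mef2d in the 3 saline libraries and morphine library 1, and the 24-nt exon of Mef2c in saline library 1 and morphine libraries 2 and 3.

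Of the 386 genes, 53 held more than 1 member and 19 held 3 or more. Besides those named, Slit2, an axon guidance ligand, and Tenm3 had 4. The members include 13 overlapping pairs in 11 genes, which share a splice site on one side, and 5 of these pairs differ by 3 nt. The exons of 15 and 18 nt in Inpp4a were both listed in all 6 libraries.

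The comparison of the morphine with the saline group asked whether the microexons that can be skipped differ after morphine training. The saline libraries listed 275, 280 and 292 microexons and the morphine libraries 297, 314 and 293. Every morphine library thus listed more than every saline library, with the nearest values 292 and 293. The means were 282.3 ± 8.74 and 301.3 ± 11.2 (SD, n = 3 each), a difference of 19 exons or 6.73% (two-sided exact permutation test, p = 0.1, the smallest p that 3 against 3 allows). As a share of all single cassette exons, microexons were 6.41%, 6.38% and 6.26% in the saline libraries and 6.60%, 6.67% and 6.55% in the morphine libraries, again without overlap (difference 0.256 percentage points, exact permutation test, p = 0.1). Both adjusted p-values were 0.1, and the design could not reach 0.05. For exons of 3 to 15 nt alone the differences were 4.67 exons (exact permutation test, p = 0.4) and 0.0735 points (p = 0.3, the same test). Within genes listed in all 6 libraries the difference was 18 exons (exact permutation test, p = 0.2). Genes with a microexon numbered 239 to 249 in the saline and 247 to 262 in the morphine libraries, with overlap (exact permutation test, p = 0.2).

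Longer cassette exons numbered 4166 ± 184.5 in the saline and 4260 ± 118.3 in the morphine group (SD, n = 3 each), with overlapping values (exact permutation test, p = 0.5). Coding members that keep the frame numbered 219 to 224 in the saline and 227 to 244 in the morphine libraries, with means of 221.7 ± 2.52 and 234.7 ± 8.62 (exact permutation test, p = 0.1, n = 3 each). The other members averaged 60.7 and 66.7 (exact permutation test, p = 0.4).

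Sequencing depth moved with the number of microexons. Relative depth averaged 1.14 in the saline and 1.36 in the morphine group, with overlapping values (exact permutation test, p = 0.3, n = 3 each). Across the 6 libraries, depth and the number of microexons had Pearson's r of 0.934 (permutation p = 0.0139, adjusted over 3 relations 0.0208) and Spearman's rho of 0.771 (permutation p = 0.103, adjusted 0.154). Without saline library 1 and morphine library 2, the 2 farthest from the median depth, r was 0.659. The share of microexons was less tied to depth, with r of 0.437 (permutation p = 0.386) and rho of 0.314 (permutation p = 0.564), and r of -0.226 without those 2 libraries. Morphine library 2 had the greatest estimated depth, 1.59, and the highest count, 314. Saline library 1 had the least depth, set to 1, and the lowest count, 275. Saline library 3, estimated deeper at 1.37 than morphine libraries 1 and 3, listed 292 microexons, fewer than their 297 and 293. The part of depth in the group difference was not tested, and depth and group cannot be separated with 3 libraries each.

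**Figure D5:**
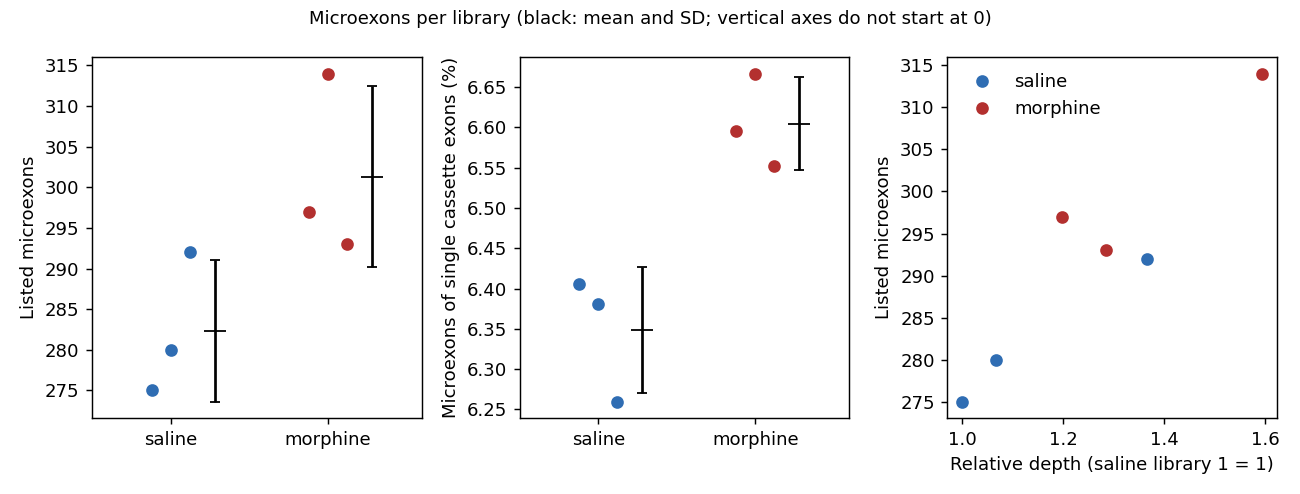
Listed microexons and their percent of single cassette exons by group (left and middle vertical axes, which do not start at 0; points are libraries, black marks the mean and SD of 3), and listed microexons against relative depth with saline library 1 set to 1 (right panel). The morphine libraries lie above the saline libraries in both measures, with 292 and 293 as the nearest counts, and morphine library 2 has the greatest depth, 1.59, and the highest count, 314.

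Few microexons separated the groups. Of the 465, 3 (0.645%) were listed in all 3 libraries of one group and in none of the other, compared with 1.26% of all 8834 single cassette exons (111 exons). The morphine group alone listed 2 of them (background 0.702% of all cassette exons), a 17-nt exon of Efemp2, a matrix protein of elastic fibres, at chr19:5479802-5479818, and an 18-nt exon of ENSMUSG00000098615 on a patch sequence. M21 does not annotate the Efemp2 exon. The M21 annotation used does not hold the gene of the patch exon, so that exon could not be matched. The patch exon has the length and both flanking intron lengths (527 and 768 nt) of the 18-nt exon of Arvcf, a catenin of cell junctions, at chr16:18400781-18400798, which all 6 libraries listed. Whether the patch exon is a copy of it was not tested. Without patch and other-strand exons, 2 members separated the groups, 1 in each direction. The saline group alone listed 1 (background 0.555%), an 18-nt exon of Ube2e2, a ubiquitin-conjugating enzyme, at chr14:18818569-18818586, which M21 has in a noncoding transcript. None of the 320 coding members that keep the frame separated the groups. At 0.645%, the share of the members was below that of all cassette exons, but it rests on 3 exons and was not tested. Exons listed in all 6 libraries cannot separate the groups, and these were 34.6% of the members and 23.6% of the longer exons.

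More members were listed in more morphine than saline libraries than the other way round, as were more cassette exons of any length. Of the 465, 143 (30.8%) were listed in more morphine libraries, against 33.2% of all cassette exons, 105 (22.6%) in more saline libraries, against 30.3%, and 217 in equal numbers. By a margin of at least 2 libraries, 33 (7.10%) leaned to morphine, against 5.37% of all cassette exons, and 15 (3.23%) leaned to saline, against 4.6%. No test was run on these counts, and the part of depth in them was not tested. The 12-nt exon of Agrn, the matrix protein agrin that organises synapses, was listed in saline library 2 and all 3 morphine libraries, as was the 15-nt exon of Snap91, a clathrin assembly protein of nerve terminals. In the other direction, the 15-nt exon of the latrophilin Adgrl3 and the 21-nt Mef2d exon were listed in all 3 saline libraries and morphine library 1, and the 21-nt exon of Cadps2 in all 3 saline libraries and morphine library 2. For each role list, members listed in more morphine and in more saline libraries were counted, against 33.2% and 30.3% of all cassette exons. The counts were 10 and 2 of 34 members in cytoskeleton genes, and 7 and 10 of 47 in adhesion genes. Vesicle genes gave 6 and 8 of 24, and kinases and GTPase regulators 4 and 3 of 15. Channels and calcium genes gave 0 and 3 of 8, translation and RNA genes 1 and 0 of 6. Transcription and chromatin genes gave 1 and 1 of 3. Overlapping exons were counted separately, such as those of 12 and 15 nt in Macf1 and of 21 and 24 nt in Synj1. Over all role lists the counts were 29 and 27 of 137, and no difference between lists was tested.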

How the data were processed

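Total RNA from the NAc of 6 libraries (3 saline, 3 morphine, grouped by the treatment label) was sequenced by the authors. Per the study's methods, libraries were stranded, reads were mapped with HISAT2 and transcripts assembled with StringTie. The genome build and the program that wrote the event lists are not given in the sources used here. The event lists deposited by the authors give each event's type, gene, position and strand. Their column named FPKM held only 0 and negative whole numbers and was not used. The table of differential transcripts deposited by the authors gives raw read counts and FPKM values from StringTie. It holds only transcripts the authors called differential, and its own fold changes and adjusted p-values were not used. The number of unused columns of single samples was 0.

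Relative depth was estimated from the ratio of count to FPKM by weighted least squares over 91 values with at least 10 counts. Events were matched to GENCODE M21 by gene identifier and exact position, and intron lengths were taken from the event patterns. No genome was used, so 20 bases of annotated transcript stand beside each exon in place of intron sequence. Group comparisons used exact permutation tests, two-sided, and microexons with longer exons by exact sign-flip tests over libraries (Python 3.11.15, scipy 1.17.1), checked on simulated data. Named were the recurrent coding members from the shortest, members that separate the groups, the shortest 5, the role lists with examples in at least 5 libraries, and genes with 3 or more members. Others were named after their values were seen: further 6-nt exons, family members with similar exons, exons that shift the frame, unannotated exons in all 6 libraries, and exons that lean to a group. Members and lists were chosen with earlier results of these data known. Replicate numbers are names only. Alternatives were other length limits, other reference classes, annotated exons only and no patch or other-strand exons. Further alternatives were genes listed in all 6 libraries and leaving out each library. Some items are counted but not reported here, and most other members are given by counts and ranges only.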

Additional observations from a re-analysis of the deposited data

How the results depend on the processing

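No paired analysis was possible because the labels give the groups no shared replicate numbers. The count of microexons that separate the groups, 3, was 0 for exons of 3 to 15 nt, 1 for annotated exons, 2 without patch and other-strand exons and 0 for coding exons that keep the frame (the last chosen after seeing the data). It lay between 7 and 16 when a library was left out, since 2 libraries of a group then suffice. The group difference was 4.67 exons (exact permutation p = 0.4) and 0.0735 points (exact permutation p = 0.3) for 3 to 15 nt. For coding exons that keep the frame the share was taken of all such cassette exons. It averaged 10.98% in the saline and 11.47% in the morphine libraries, a group difference of 0.494 points. Within genes listed in all 6 libraries the group difference was 18 exons (exact permutation p = 0.2) and 0.231 points (exact permutation p = 0.1). Without a library it was 12.7 to 23.8 exons (exact permutation p = 0.1 to 0.2) and 0.211 to 0.285 percentage points. The annotated share, 1.33 points above that of longer exons, was -0.600 for 3 to 15 nt, -0.763 against 28 to 150 nt and -2.09 against 28 to 51 nt, and 0.486 without patch and other-strand exons. The share listed in all libraries, 8.37 points higher, turned to -16.8 for 3 to 15 nt, and to -4.07 against 28 to 51 nt and -0.0584 among coding exons that keep the frame, both added after seeing the data. The upstream intron difference turned to 71.6 nt against 28 to 51 nt, added likewise, and was -802 nt for 3 to 15 nt. Without a library, with p = 0.0625 as the smallest exact p of 5 pairs, the differences were 31.2 to 31.8 points for frame, 0.994 to 1.54 for annotation, 7.35 to 9.73 for sharing, and -406.8 to -335.1 nt and -838 to -811.2 nt for the upstream and downstream introns. The planned search for TGC before the exon and the filter on splice site bases were not run, since they need a genome. The part of depth in these values was not tested, and a missing entry gives no level.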
